A study of Mus musculus with 10 samples.

Results

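The 36 genes described here carry out or regulate the synthesis of sterols and fatty acids, and were chosen by name from the known pathways of sterol regulatory element-binding proteins (SREBPs). The choice was made with earlier results of these data known. All 36 were matched by symbol to a gene of the deposited count table, out of 54307 genes in that table. All 36 were expressed strongly enough to be among the 12411 genes tested. By role they are 8 enzymes of the mevalonate pathway, 11 enzymes that lead from squalene to cholesterol, 2 genes of sterol transport, 6 regulators and 9 genes of fatty acid synthesis and desaturation. RNA was measured by poly(A)+ RNA-seq in macrophages grown from the bone marrow of male mice 6 to 8 weeks old. The cells were differentiated in medium with 20% conditioned medium of L-929 fibroblasts, which supplies the growth factor for macrophages, and were harvested on day 7. There were 5 libraries from mice labelled hWDFY3KI/KI with the genotype Human WDFY3 overexpression, called knock-in here, and 5 libraries from mice labelled Wild-type control. No treatment separates the groups, and the labels name neither the promoter nor the locus of the knock-in allele. WDFY3, also known as ALFY, is a scaffold protein of selective autophagy, and the comparison asks how its overexpression alters the RNA of these macrophages.

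SREBPs are transcription factors that are made as membrane proteins of the endoplasmic reticulum. When sterols in that membrane are scarce, the escort protein SCAP carries SREBPs to the Golgi, where proteases release the part that enters the nucleus. When sterols are plentiful, INSIG proteins hold SCAP back. SREBP2, the product of Srebf2, mainly drives genes of cholesterol synthesis and uptake, whereas the SREBP1c form of Srebf1 mainly drives fatty acid genes and is itself a target of the oxysterol receptor LXR. In macrophages this balance is known to shift with the cholesterol taken up from engulfed cells and lipoproteins.

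The libraries held 14617652 to 36387405 estimated counts. Levels are given as CPM, counts per 1000000 counts of a library whose size was adjusted by TMM (trimmed mean of M values, which aligns the bulk of genes between libraries), with the mean ± SD over 5 libraries, and differences as fitted log2 fold changes of knock-in over control ± SE. The mouse gene Wdfy3 was at 120 ± 6.19 CPM in the knock-in libraries and 110 ± 9.83 CPM in the control libraries (adjusted p = 0.811). The count table lists mouse genes, so the human transcript was not measured and this value does not check the genotype labels. The macrophage markers were present in every library, with Lyz2, a lysozyme, at 24625 CPM or more in the knock-in libraries and 18250 CPM or more in the control libraries. The summed level of 13 stromal cell markers was 112 CPM in knock-in 4, against 2.77 to 26.9 CPM in the other knock-in libraries. It was 187 and 183 CPM in control 1 and control 4, against 7.55 to 15.1 CPM in the other control libraries. Of 5 adipocyte markers, which would point to a lipid-synthesising cell of the marrow, 3 (Cidec, Lep and Cfd) had no count in any library. The sum of the 5 was at most 0.102 CPM in a knock-in library and 0.0650 CPM in a control library. In bulk RNA, fewer cells of a type and less RNA per cell cannot be told apart.

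The promoters of 5 members are shown, taken from the groups whose levels are described next, namely Hmgcs1 and Mvd as mevalonate enzymes, Insig1 and Srebf2 as regulators and Acss2 as the fatty acid gene with the lowest log2 fold change. Each holds up to 200 bases that lie before both the RefSeq and the GENCODE start of the gene, 5′ to 3′ on its strand, from RefSeq in the build GRCm38.p6. Capitals mark the letters TCACNCCAC of a sterol regulatory element, CCAAT as bound by NF-Y, and GGGCGG as bound by Sp1, on either strand, and the related TCACNTGA; NF-Y and Sp1 are known partners of SREBPs at these promoters. The windows lie at chr13:119690151-119690350, plus strand (Hmgcs1), chr8:122443423-122443622, minus strand (Mvd), chr5:28071163-28071362, plus strand (Insig1), chr15:82147019-82147180, plus strand (Srebf2) and chr2:155517793-155517947, plus strand (Acss2).

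Hmgcs1: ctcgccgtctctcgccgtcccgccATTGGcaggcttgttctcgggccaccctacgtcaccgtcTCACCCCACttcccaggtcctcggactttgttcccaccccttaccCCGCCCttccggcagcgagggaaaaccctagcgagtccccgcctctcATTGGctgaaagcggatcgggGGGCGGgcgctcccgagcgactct
Mvd: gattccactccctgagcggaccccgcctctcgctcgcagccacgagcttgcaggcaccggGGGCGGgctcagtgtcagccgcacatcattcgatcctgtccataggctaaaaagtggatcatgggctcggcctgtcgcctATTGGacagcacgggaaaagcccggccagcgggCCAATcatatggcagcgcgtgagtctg
Insig1: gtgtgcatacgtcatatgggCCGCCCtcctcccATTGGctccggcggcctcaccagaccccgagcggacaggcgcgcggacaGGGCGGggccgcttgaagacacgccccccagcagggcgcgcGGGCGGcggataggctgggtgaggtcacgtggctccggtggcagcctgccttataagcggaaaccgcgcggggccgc
Srebf2: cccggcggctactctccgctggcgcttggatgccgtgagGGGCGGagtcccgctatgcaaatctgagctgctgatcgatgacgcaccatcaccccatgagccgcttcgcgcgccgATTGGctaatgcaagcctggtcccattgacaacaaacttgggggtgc
Acss2: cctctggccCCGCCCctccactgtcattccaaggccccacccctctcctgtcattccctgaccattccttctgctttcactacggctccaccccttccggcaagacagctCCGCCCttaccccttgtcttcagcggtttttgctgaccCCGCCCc

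Windows from 250 bases before to 50 bases after the start were found for 29 of the 36 members. CCAAT was found in 15 of the 16 sterol synthesis enzymes with a window (93.8%) and in 3 of 6 fatty acid genes (50%), against 41.1% of all 27025 genes with such a window. These fatty acid genes include Acss2, where CCAAT begins at position -73 from the start, beyond its printed bases. GGGCGG was found in 14 of the 16 sterol synthesis enzymes (87.5%) and in 3 of 6 fatty acid genes (50%), against 38.2% of all genes. The exact letters TCACNCCAC were found in 1 of the 29 members, Hmgcs1, where they begin at position -137 from the start, and in 1.44% of all genes. The letters TCACNTGA were found in 1 member, Insig2, and in 4.78% of all genes. The 27025 genes include many outside the 12411 tested here, whereas every member was tested, and shares among tested genes alone were not taken. These are matches of letters on either strand in any window of a gene, and a match is not a site shown to be bound.

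No member gene passed the test between knock-in and control macrophages. In edgeR's quasi-likelihood test, 0 of 36 members had an adjusted p under 0.05, where 0.0806% of all tested genes did (10 genes, 0.0403% higher and 0.0403% lower in knock-in), and the adjusted p of the members ran from 0.700 to 0.997. At an unadjusted p under 0.05 there were 2 members, Hmgcs1 and Elovl6, both higher in the knock-in libraries. That is 5.56% of the members and close to the 6.21% of all tested genes (3.29% higher and 2.92% lower in knock-in). DESeq2 gave 4 such members (11.1%, against 3.76% of the 24020 genes it gave a p) and 0 with an adjusted p under 0.05. The count of 2 depended on which libraries entered the fit: it was 7 without knock-in 2 (19.4% of members, against 5.13% of all genes tested in that fit) and 5 without knock-in 4 (13.9%, against 7.97%). It was 4 (11.1%) without control 2, control 3 or control 4, against 5.15%, 8.27% and 6.23% of all genes in those fits. It was 1 (2.78%) without control 1, knock-in 3 or knock-in 5, against 5.61%, 4.84% and 4.52%. The groups overlapped for all 36 members, while 1.32% of all tested genes did not overlap (0.733% with knock-in higher). The interval of 2 SE held 0 for 31 of 36 members, the others being Hmgcs1, Msmo1, Srebf2, Elovl6 and Acss2. This interval is somewhat narrower than the edgeR test allows. Msmo1, Srebf2 and Acss2 lay outside 0 by it, with unadjusted p of 0.0645, 0.0527 and 0.0576. Of all 36 intervals, 4 reached a 1.5-fold change (Insig1, Acss2, Scd1 and Fads2). At 2 SE, 0 reached a 2-fold change, but that of Acss2 came close to it, with a lower end at a log2 fold change of -0.98. Within these limits, 27 of 36 members had a positive log2 fold change, where 48.3% of all tested genes did, and the 9 negative ones included 6 of the 9 fatty acid genes.

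**Figure D1:**
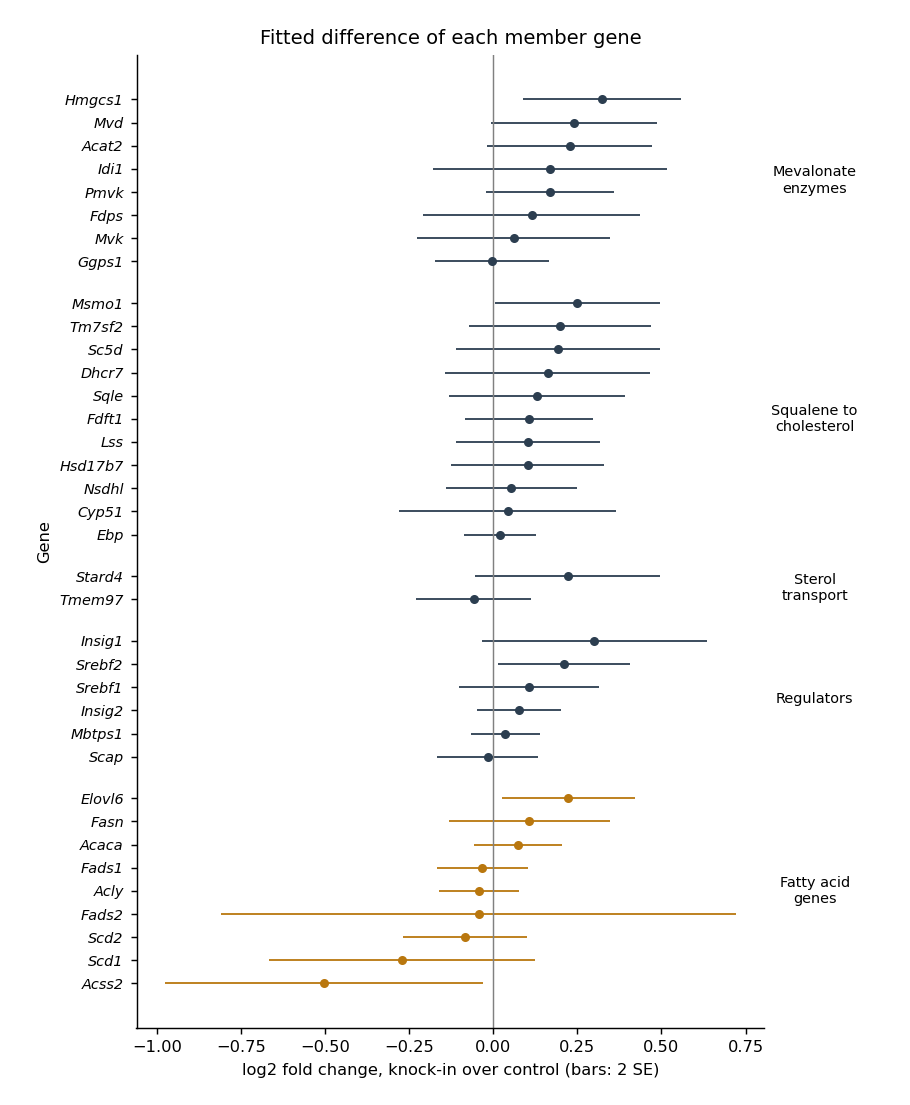
Fitted log2 fold change of knock-in over control for each of the 36 member genes, grouped by role and ordered within a group; points are the fitted values, bars are 2 SE, and fatty acid genes are in orange. Of the 19 sterol synthesis enzymes in the upper groups 18 lie right of 0 (Ggps1 as well with upper-quartile scaling), and 6 of the 9 fatty acid genes lie left of it.

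Of the 8 mevalonate pathway enzymes, 7 had a positive log2 fold change, with a median of 0.17. Hmgcs1 (ENSMUSG00000093930, chromosome 13, 119690379 to 119708260 in GRCm38), which makes HMG-CoA in the cytosol, was at 73.1, 69.3, 94.0, 79.8 and 112 CPM in knock-in libraries 1 to 5, against 64.5, 67.6, 72.4, 64.3 and 73.8 CPM in control libraries 1 to 5. All 5 knock-in values exceeded the median of the controls, and 3 of them (libraries 3, 4 and 5) lay above every control, while knock-in 1 and 2 lay within the control range. Its log2 fold change was 0.32 ± 0.12, a difference that did not pass the test (adjusted p = 0.700, unadjusted p = 0.0178). Mvd (ENSMUSG00000006517), which decarboxylates mevalonate diphosphate, was at 18.96, 17.2, 20.1, 20.7 and 26.3 CPM in knock-in libraries 1 to 5, against 15.98, 16.2, 20.9, 19.8 and 14.56 CPM in control libraries 1 to 5. Every knock-in value exceeded the median of the controls, but knock-in 5 was the one library above every control (log2 fold change 0.24 ± 0.12, adjusted p = 0.810). Fdps (ENSMUSG00000059743), the synthase of farnesyl diphosphate at the branch point of sterols and protein prenylation, was at 24.6, 24.9, 34.4, 28.4 and 41.5 CPM in knock-in libraries 1 to 5, against 23.6, 33.0, 34.1, 25.5 and 26.3 CPM in control libraries 1 to 5. Knock-in 1 and 2 were among the lowest libraries for Fdps and knock-in 5 was the highest, so that its log2 fold change of 0.11 ± 0.16 was smaller than its SE. Acat2, which condenses acetyl-CoA at the entry of the pathway, Pmvk, which phosphorylates phosphomevalonate, and Idi1, the isomerase of isopentenyl diphosphate, had log2 fold changes of 0.23 ± 0.12, 0.17 ± 0.095 and 0.17 ± 0.17. Mvk, the mevalonate kinase, was at 0.060 ± 0.14. Ggps1, which makes geranylgeranyl diphosphate outside the route to sterols, was the exception, at 24.1 ± 1.87 CPM in the knock-in libraries and 24.2 ± 2.83 CPM in the control libraries, and its sign turned with upper-quartile scaling (0.0014).

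The 11 enzymes from squalene to cholesterol all had a positive log2 fold change in the count fit (Lss was at -0.041 in the deposited log2 values), with a median of 0.11 and a range from 0.019 (Ebp) to 0.25 (Msmo1). Msmo1 (ENSMUSG00000031604, chromosome 8, 64718139 to 64733792), the methylsterol oxidase, was at 83.7, 80.3, 103, 78.8 and 120.3 CPM in knock-in libraries 1 to 5, against 75.5, 91.2, 80.7, 67.5 and 77.0 CPM in control libraries 1 to 5. Knock-in 3 and 5 lay above every control and the other 3 within the control range (log2 fold change 0.25 ± 0.12, adjusted p = 0.802). Sqle (ENSMUSG00000022351), the squalene epoxidase that catalyses a rate-limiting step, was at 33.5, 35.2, 43.8, 37.6 and 56.6 CPM in knock-in libraries 1 to 5, against 39.0, 42.6, 37.2, 35.3 and 35.1 CPM in control libraries 1 to 5. For Sqle, too, knock-in 3 and 5 were the highest of the 10 libraries, and knock-in 1 was the lowest (log2 fold change 0.13 ± 0.13, adjusted p = 0.891). Sc5d, which makes the 5,6 double bond of the sterol ring, averaged 55.7 ± 14.1 CPM in knock-in and 48.9 ± 4.84 CPM in control libraries, and the lanosterol demethylase Cyp51 54.6 ± 12.2 and 53.2 ± 9.22 CPM. Dhcr7, the last enzyme on the route through 7-dehydrocholesterol, averaged 34.1 ± 6.71 CPM in knock-in and 30.4 ± 5.45 CPM in control libraries, and was highest in knock-in 4 and not in knock-in 5. Ebp, the sterol isomerase, varied least of these enzymes, at 33.2 ± 1.99 CPM in knock-in and 32.7 ± 0.987 CPM in control libraries. The remaining members of this group, Fdft1 (squalene synthase), Lss (lanosterol synthase), Tm7sf2 (a sterol reductase), Nsdhl and Hsd17b7 (which act in the removal of methyl groups at carbon 4), had log2 fold changes from 0.053 to 0.20 and adjusted p-values from 0.849 to 0.941.

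**Figure D2:**
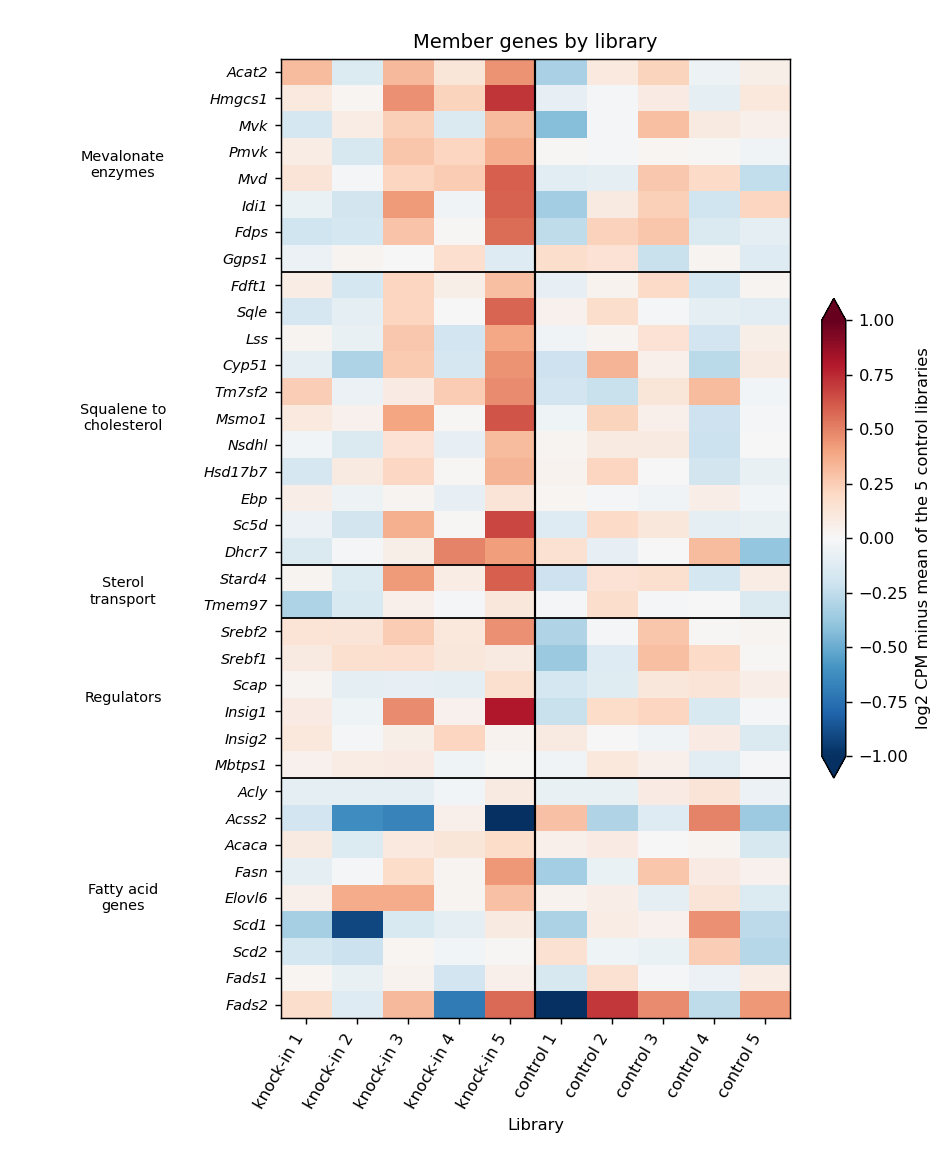
Log2 CPM of the 36 member genes (rows, grouped by role) in the 10 libraries (columns), as the difference from the mean of the 5 control libraries; red is higher and blue lower, and colours stop at 1 either way. The red rows of the sterol genes stand mainly in the columns of knock-in 5 and knock-in 3, while Acss2 near the bottom is lowest in knock-in 5. Fads2 is highest in control 2, but among the knock-in libraries it too is highest in knock-in 5 and knock-in 3.

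The 2 transport genes had log2 fold changes of opposite sign, and neither passed the test. Stard4 (ENSMUSG00000024378), a carrier of cholesterol between membranes, was at 27.3, 24.2, 35.97, 28.1 and 40.4 CPM in knock-in libraries 1 to 5, against 23.2, 29.5, 29.9, 23.7 and 28.1 CPM in control libraries 1 to 5. Again knock-in 3 and 5 were the highest libraries (log2 fold change 0.22 ± 0.14, adjusted p = 0.841). Tmem97, the sigma-2 receptor of the endoplasmic reticulum, was at 21.2 ± 2.45 CPM in knock-in and 22.1 ± 1.74 CPM in control libraries.

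Among the regulators, Insig1 and Srebf2 had the highest fold changes. Srebf2 (ENSMUSG00000022463, chromosome 15, 82147181 to 82205379) was at 121, 121, 132, 118 and 151 CPM in knock-in libraries 1 to 5, against 89.5, 109.7, 133, 111 and 113 CPM in control libraries 1 to 5. The knock-in libraries all lay above 4 of the 5 controls, and control 3 lay above 4 of the 5 knock-in libraries (log2 fold change 0.21 ± 0.098, adjusted p = 0.799). Insig1 (ENSMUSG00000045294), both a brake on SREBP processing and a target of SREBPs, was at 59.8, 54.8, 78.1, 58.1 and 98.3 CPM in knock-in libraries 1 to 5, against 48.2, 64.2, 65.3, 50.7 and 55.6 CPM in control libraries 1 to 5. Knock-in 3 and 5 were the highest libraries and the other 3 lay within the control range (log2 fold change 0.30 ± 0.17, adjusted p = 0.819). Srebf1 (ENSMUSG00000020538) was at 63.9, 67.0, 67.7, 64.9 and 64.1 CPM in knock-in libraries 1 to 5, against 46.3, 54.8, 74.0, 68.7 and 60.5 CPM in control libraries 1 to 5. The knock-in values for Srebf1 lay close together inside a wide control range, and knock-in 3 and 5 did not stand out (log2 fold change 0.11 ± 0.10, adjusted p = 0.891). Scap (ENSMUSG00000032485) was at 45.4, 41.8, 42.1, 41.7 and 49.8 CPM in knock-in libraries 1 to 5, against 39.4, 40.8, 48.1, 48.7 and 46.5 CPM in control libraries 1 to 5. Its groups overlapped over most of their range, and the interval of its log2 fold change ran from -0.17 to 0.13. Insig2, a second anchor of SCAP, and Mbtps1, the site-1 protease that cuts SREBPs in the Golgi, had log2 fold changes of 0.076 ± 0.063 and 0.035 ± 0.052. Over all roles, 5 of the 36 members had every knock-in library above the control median (Hmgcs1, Mvd, Msmo1, Srebf2 and Srebf1), which is near the 11.6% of all tested genes.

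**Figure D3:**
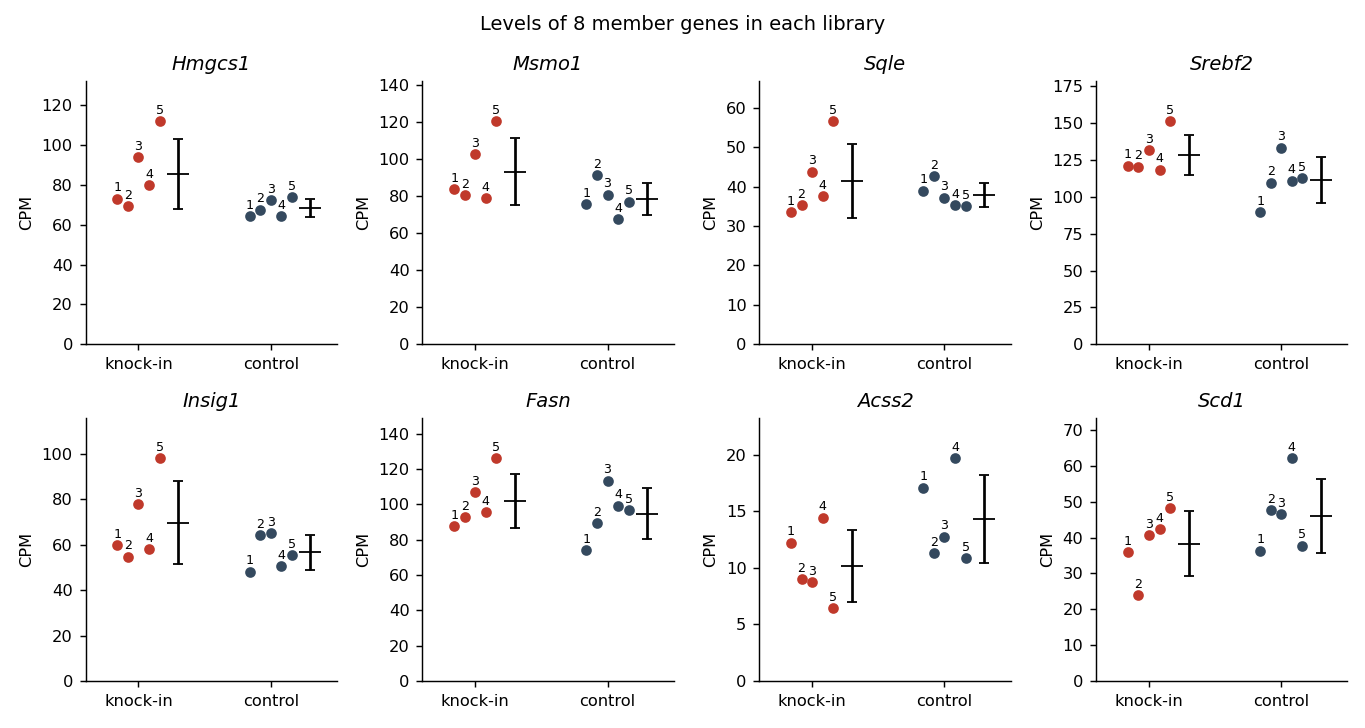
CPM of 8 member genes in each library, knock-in left of control; points are single libraries with their replicate number, and the bar beside them is the mean ± SD of 5 libraries. Knock-in 5 is the highest library for Hmgcs1, Msmo1, Sqle, Srebf2, Insig1 and Fasn and the lowest for Acss2.

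The 9 fatty acid genes showed no common direction, with 3 positive and 6 negative log2 fold changes and a median of -0.042. Acss2 (ENSMUSG00000027605, chromosome 2, 155517948 to 155585724), which makes acetyl-CoA from acetate, was at 12.2, 9.04, 8.73, 14.5 and 6.45 CPM in knock-in libraries 1 to 5, against 17.1, 11.3, 12.8, 19.7 and 10.9 CPM in control libraries 1 to 5. Its log2 fold change of -0.50 ± 0.24 was the farthest from 0 of all members and did not pass the test (adjusted p = 0.799, unadjusted p = 0.0576). Within each group Acss2 peaked where stromal markers did (knock-in 4, and control 1 and 4), and its log2 fold change was -0.35 without those 3 libraries. Elovl6 (ENSMUSG00000041220), which lengthens palmitate, was at 8.24, 10.3, 10.3, 8.10 and 9.75 CPM in knock-in libraries 1 to 5, against 8.14, 8.34, 7.49, 8.71 and 7.21 CPM in control libraries 1 to 5. Knock-in 2, 3 and 5 lay above every control and knock-in 1 and 4 within their range (log2 fold change 0.22 ± 0.099, adjusted p = 0.788, unadjusted p = 0.0430). Fasn (ENSMUSG00000025153), the fatty acid synthase, was at 87.7, 92.9, 107, 95.8 and 126 CPM in knock-in libraries 1 to 5, against 74.3, 89.5, 114, 99.3 and 96.8 CPM in control libraries 1 to 5. Knock-in 5 was the one library above every control for Fasn (log2 fold change 0.11 ± 0.12, adjusted p = 0.902). Acly (ENSMUSG00000020917), which makes acetyl-CoA from citrate, was at 156, 155, 156, 162 and 177 CPM in knock-in libraries 1 to 5, against 158, 157, 175, 181 and 159 CPM in control libraries 1 to 5. The groups overlapped over most of their range (log2 fold change -0.042 ± 0.060), and Acaca, the acetyl-CoA carboxylase, was likewise at 0.073 ± 0.066.

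The desaturases varied between libraries more than between groups. Scd1 (ENSMUSG00000037071), a stearoyl-CoA desaturase, was at 35.98, 23.99, 40.7, 42.4 and 48.3 CPM in knock-in libraries 1 to 5, against 36.38, 47.8, 46.5, 62.2 and 37.8 CPM in control libraries 1 to 5. Knock-in 2 was the lowest library and control 4 the highest (log2 fold change -0.27 ± 0.20, adjusted p = 0.856). Scd2 (ENSMUSG00000025203), a related desaturase on the same stretch of chromosome 19, was at 358, 348, 409, 397 and 407 CPM in knock-in libraries 1 to 5, against 448, 391, 385, 479 and 332 CPM in control libraries 1 to 5. The controls for Scd2 spread on both sides of the knock-in values (log2 fold change -0.085 ± 0.092). Fads2, the delta-6 desaturase of polyunsaturated fatty acids, was at 19.1, 15.4, 21.1, 10.2 and 24.99 CPM in knock-in libraries 1 to 5, against 6.47, 27.6, 23.4, 14.1 and 22.7 CPM in control libraries 1 to 5. Within each group it was lowest in knock-in 4 and in control 1 and 4, the libraries rich in stromal markers, and had the largest SE of all members (log2 fold change -0.044 ± 0.38). Fads1, the delta-5 desaturase beside it on chromosome 19, was steadier, at 119 ± 8.19 CPM in knock-in and 122 ± 10.02 CPM in control libraries.

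Set side by side, 18 of the 19 sterol synthesis enzymes had a positive log2 fold change with a median of 0.13, and 3 of the 9 fatty acid genes with a median of -0.042, while the median over all tested genes was -0.0046 and their middle 50% ran from -0.081 to 0.072. The mean log2 CPM of the sterol synthesis enzymes was 4.49, 4.41, 4.72, 4.55 and 4.92 in knock-in libraries 1 to 5, against 4.40, 4.56, 4.59, 4.44 and 4.46 in control libraries 1 to 5. Knock-in 3 and 5 lay above every control, and the other 3 lay within the control range. The mean log2 CPM of the fatty acid genes was 5.69, 5.55, 5.76, 5.66 and 5.82 in knock-in libraries 1 to 5, against 5.56, 5.82, 5.82, 5.89 and 5.67 in control libraries 1 to 5, with the groups overlapping over most of the range. The difference of these means, sterol minus fatty acid, was -1.20, -1.14, -1.04, -1.11 and -0.90 in knock-in libraries 1 to 5, against -1.16, -1.25, -1.23, -1.45 and -1.22 in control libraries 1 to 5. It averaged -1.08 ± 0.12 in knock-in and -1.26 ± 0.11 in control libraries (SD), and 4 of the 5 knock-in libraries lay above every control. Part of this rests on Acss2, which counts in the fatty acid mean. Relative to the mean of the controls, its log2 CPM was -0.19, -0.62, -0.67, 0.050 and -1.10 in knock-in libraries 1 to 5. In control libraries 1 to 5 it was 0.29, -0.30, -0.13, 0.50 and -0.36. The difference of the branch means was not taken without Acss2, so 4 of 5 may not hold for the other fatty acid genes. These branch values are descriptions and were not tested, since the members were chosen with results of these libraries known.

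**Figure D4:**
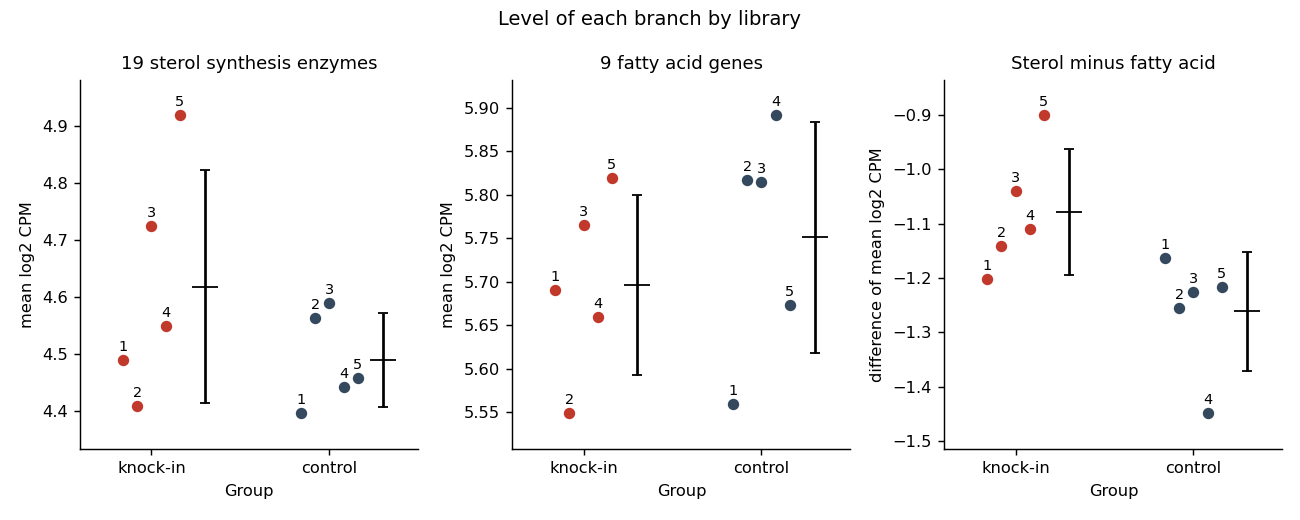
Mean log2 CPM of the 19 sterol synthesis enzymes, of the 9 fatty acid genes, and the difference of both, in each library, knock-in left of control; points carry the replicate number and the bar beside them is the mean ± SD of 5 libraries. The sterol values of knock-in 3 (4.72) and knock-in 5 (4.92) lie above all controls, while the fatty acid values of the groups overlap.

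The order of the libraries was much alike across the sterol genes. Knock-in 5 was the highest of the 10 libraries for 17 of the 19 sterol synthesis enzymes (89.5%), where it was the highest for 10.4% of all tested genes. It was also the highest for 3 of the 6 regulators, 8 of the 18 tested further genes of sterol handling and 2 of the 9 fatty acid genes. Among the knock-in libraries alone, 5 and 3 were the highest 2 for 14 of the 19 enzymes (73.7%). They were so for 4 of the 9 fatty acid genes too (44.4%), against 10.9% of all tested genes, so the fatty acid genes share part of this order. Knock-in 5 lay above every control for 18 of the 19 enzymes (15.9% of all tested genes), knock-in 3 for 11 (12.4%), knock-in 4 for 3 (12.5%), knock-in 1 for 2 (13.8%) and knock-in 2 for 0 (14.8%). The relative spread was larger among knock-in than among control libraries for 16 of the 19 enzymes (34.0% of all tested genes) and for 4 of the 9 fatty acid genes. The summed level of the 19 enzymes was 784 CPM in knock-in 5 and 672 CPM in knock-in 3, against 520.1 to 598 CPM in the control libraries, and it was 521 to 574 CPM in the other 3 knock-in libraries. Without knock-in 5, the median log2 fold change of the sterol synthesis enzymes was 0.044 in place of 0.13, and 13 of 19 were positive. Leaving out any other library gave a median from 0.097 to 0.19 and 17 to 19 positive enzymes. For the fatty acid genes the median changed sign without control 2 (0.0064) or knock-in 4 (0.0031), with 5 of 9 positive each time.

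**Figure D5:**
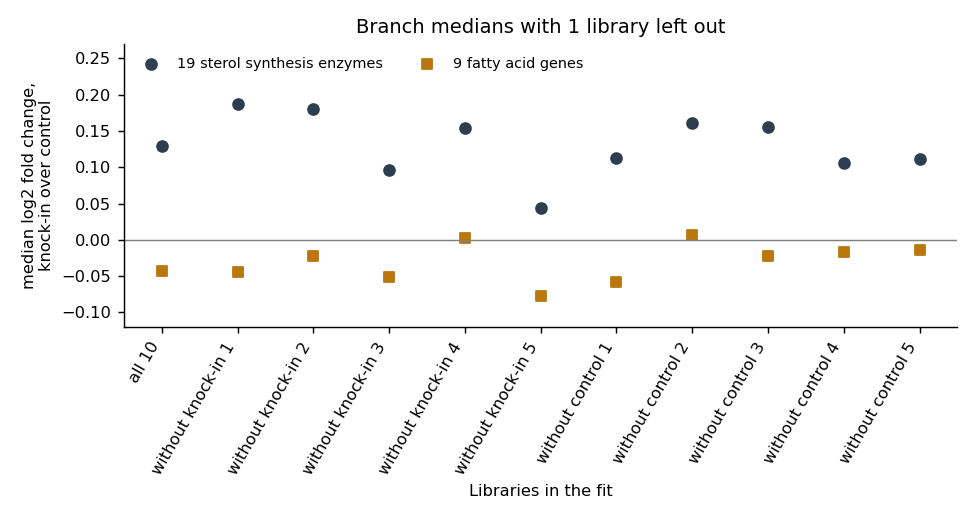
Median log2 fold change of knock-in over control for the 19 sterol synthesis enzymes (circles) and the 9 fatty acid genes (squares), with all 10 libraries and with each library left out in turn. The sterol median is lowest without knock-in 5, at 0.044, and the fatty acid median runs from -0.077 to 0.0064.

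Other features of the libraries were set beside this order. Knock-in 5 had the lowest summed stromal markers of the 10 libraries (2.77 CPM) and the lowest summed level of 12 neutrophil markers (108 CPM, against 174 to 369 CPM in the other knock-in libraries and 189 to 548 CPM in the control libraries). Knock-in 3, the next highest in sterol enzymes, had 26.9 CPM of stromal and 174 CPM of neutrophil markers. Within the knock-in libraries the stromal markers did not follow the sterol order. Knock-in 1 had 4.24 CPM of them, less than every library but knock-in 5, and a sterol mean within the control range, and knock-in 2 had 19.1 CPM and the lowest sterol mean of the knock-in libraries. Among the controls, control 1 and control 4 had the most stromal RNA and the lowest means of the sterol enzymes. Knock-in 4, with 112 CPM of stromal markers, ranked behind knock-in 5 and knock-in 3 and above the other 2 knock-in libraries. With the stromal marker level as a covariate the median log2 fold change of the sterol enzymes was 0.074 with 16 of 19 positive. Without control 1, control 4 and knock-in 4 it was 0.095 with 18 of 19 positive. Knock-in 5 and knock-in 3 were also lowest in the mean log2 CPM of 10 genes of the LXR pathway, at 6.45 and 6.46, against 6.55 to 6.83 in the other knock-in libraries and 6.62 to 6.93 in the control libraries. Apoe, an LXR target that carries cholesterol out of macrophages, was at 3729, 4187, 1646, 3697 and 1194 CPM in knock-in libraries 1 to 5, against 3198, 4004, 5718, 7415 and 4347 CPM in control libraries 1 to 5. The 2 libraries highest in sterol enzymes were thus the lowest in Apoe, whose difference between the groups did not pass the test (log2 fold change -0.77 ± 0.39, adjusted p = 0.811). The mean over the 10 LXR pathway genes includes Apoe, whose low values in knock-in 5 and knock-in 3 pull it down there. This mean was not taken without Apoe, so it does not show that the other genes were lowest in these libraries. The order of Apoe was not that of the whole list, since knock-in 5 was the highest of all libraries for 2 of the 10 LXR pathway genes. Over the whole marker lists, 1 of 10 tested stromal and 0 of 9 tested neutrophil markers had a positive log2 fold change, with medians of -1.32 and -0.88. Of 12 proliferation markers, 10 had a positive log2 fold change, with a median of 0.12. Knock-in 3 was the highest library for 8 of them and knock-in 5 for 0. The part of the neutrophil and proliferation markers in the result was not tested.

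Levels can be compared between genes only per length of transcript, here CPM per kilobase of annotated exon, which takes all exons of a gene as used. On this scale Scd2 was the most abundant member, at 70.2 ± 5.29 in knock-in and 74.5 ± 10.6 in control libraries, followed by Acly at 30.6 ± 1.72 and 31.5 ± 2.10 and Fads1 at 24.7 ± 1.70 and 25.3 ± 2.08. These 3 fatty acid genes did not overlap with their neighbours in the order of control levels. Next came Insig1 at 22.6 ± 5.93 and 18.4 ± 2.51, with Tmem97, Srebf2, Hmgcs1 and Ebp close behind. Srebf2 was at 17.9 ± 1.91 in knock-in and 15.5 ± 2.17 in control libraries, and Srebf1 at 11.6 ± 0.306 and 10.8 ± 1.95. The lowest members were Hsd17b7, Acss2, Tm7sf2 and Elovl6, with control means from 1.24 to 1.49 CPM per kilobase. Of the 35 neighbouring pairs in the order, 31 had control ranges that overlapped, so most of the middle of the order is not resolved.

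Related genes outside the list gave 0 calls at an adjusted p under 0.05 in edgeR. Of 21 genes that take up, move, store or further convert sterols, 18 were tested, 10 with a positive log2 fold change (median 0.026), and 3 had an unadjusted p under 0.05, all higher in knock-in, where 3.29% of all tested genes were called that way. Lbr, a protein of the inner nuclear membrane with sterol reductase activity, was at 27.8 ± 2.96 CPM in knock-in and 20.0 ± 4.25 CPM in control libraries (log2 fold change 0.48 ± 0.13, adjusted p = 0.554). Osbpl8, an oxysterol-binding-protein relative, was at 727 ± 57.5 CPM in knock-in and 624 ± 57.0 CPM in control libraries (adjusted p = 0.700). Of 14 genes that act in sterol sensing and SREBP processing at the endoplasmic reticulum and Golgi, 8 were positive (median 0.0042) and 0 had an unadjusted p under 0.05. The smallest p-values were those of Mbtps2, the site-2 protease, at 53.1 ± 2.87 CPM in knock-in and 49.0 ± 2.49 CPM in control libraries, and Paqr3 at 1.45 ± 0.165 and 1.80 ± 0.417 CPM. Of 24 tested further genes of fatty acid and lipid synthesis, 11 were positive (median -0.0067), and 4 had an unadjusted p under 0.05, all lower in knock-in, where 2.92% of all tested genes were. Acsl1, an acyl-CoA synthetase, was at 35.8 ± 1.24 CPM in knock-in and 39.8 ± 0.692 CPM in control libraries, without overlap (as 1.32% of all tested genes), and did not pass over all genes (adjusted p = 0.588). Hsd17b12, a reductase of fatty acid elongation, was at 137 ± 6.34 and 156 ± 15.5 CPM. Of the 10 LXR pathway genes, 3 were positive (median -0.097), and 1 had an unadjusted p under 0.05, lower in knock-in, where 2.92% of all tested genes were. Smpdl3a, a phosphodiesterase induced by LXR, was at 254 ± 43.9 CPM in knock-in and 306 ± 38.5 CPM in control libraries (adjusted p = 0.786).

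Some values are less certain because annotated transcripts share sequence and the sources used here do not give the use of strand in the quantification. The exons of Fdft1 overlap 774 bases of Ctsb, a cathepsin gene on the opposite strand with 3190735 counts over all libraries against 3803 for Fdft1. Tm7sf2 shares 532 bases on the same strand with Vps51, Acat2 shares 445 bases with Tcp1, and Acss2 overlaps 395 bases of Gss on the opposite strand. Scd1 and Scd2 share a stretch of 623 bases at 95.5% identity, so reads could be divided between them. The deposited log2 values gave the opposite sign of difference for 5 of the 36 members, Ggps1, Lss, Scap, Mbtps1 and Fads2, with differences from -0.051 to 0.079 on that scale.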

How the data were processed

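Poly(A)+ RNA of 10 macrophage libraries, 5 per genotype, was read as strand-specific 100-bp pairs, per the labels' protocols. One table has an estimated count for each Ensembl gene and library, deposited without scaling to depth; another holds log2 values, deposited as regularized-log values, per its file name and the DESeq2 named in the submitters' processing notes. These notes name Salmon 1.6.0, DESeq2 1.34.0 and the builds GRCm39 and mm10 without roles; annotation and use of strand are, in the sources used here, not given. The labels give every library a mouse of its own.

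Members were matched by symbol through the log2 table. Counts were rounded and tested with edgeR 4.0.16 (R 4.3.3): TMM factors, filterByExpr (minimum count 10, minimum total 15), robust dispersions, quasi-likelihood F-test for genotype, Benjamini-Hochberg adjustment over 12411 genes, threshold 0.05. The SE was taken as log2 fold change over the root of F. CPM use TMM-scaled library sizes, log2 CPM a prior count of 2. Gene positions and exon lengths are from GENCODE M21 (GRCm38), assigned by gene ID; sequence matches were taken from 95% identity. The fit was tested on simulated data. Alternatives were other scaling factors, DESeq2 1.42.0, limma-voom and limma-trend on the log2 values (limma 3.58.1), other filters, non-robust dispersions, a replicate block and leaving out each library; 2 alternatives on stromal markers were added after seeing the data. All 36 members are described; 2 genes per related list were named by smallest p. Apoe and Fads2 were given per library after their values were seen. The members and lists were chosen with earlier results of these data known.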

Additional observations from a re-analysis of the deposited data

How the results depend on the processing

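None of the 36 members had an adjusted p under 0.05 in any of the 21 alternatives. The lowest was 0.104, for Acss2 in edgeR with the replicate number as a block (log2 fold change -0.51 ± 0.084). The number of genes called, 10, was 52 in DESeq2, 38 without the 3 libraries highest in stromal markers, 12 with the replicate block and 6 to 23 (23 without knock-in 4) when each library was left out. The members with an unadjusted p under 0.05, 2, were 4 in DESeq2 (against 3.76% of all genes in that fit) and 7 in limma-trend on the log2 values (against 6.01%). They were 1 without the 3 stromal-rich libraries (against 6.9%) and 3 with the block (against 7.5%). When each library was left out they were 1 to 7, against 4.52% to 8.27% of all genes. The replicate block gave a sterol median of 0.10 and a fatty acid median of -0.032. Same-numbered libraries deviated together with correlations from -0.20 to 0.51, against -0.44 to 0.47 for libraries with other numbers. In each group, 2 of 5 libraries correlated best with their own number. These values do not settle whether the numbers are pairs, and the labels do not call them pairs. Leaving out each library gave a sterol median from 0.044 to 0.19 with 13 to 19 positive enzymes, and a fatty acid median from -0.077 to 0.0064 with 3 to 5 positive genes. Of 756 values of a member in an alternative, 42 changed sign, in 13 members, and 0 crossed the threshold. Ggps1 was at 0.0029 with the block, 0.0014 with upper-quartile factors, 0.053 in limma-trend, 0.018 without the stromal-rich libraries and 0.054 with the stromal covariate. Fads2 was at 0.011 with the block, 0.099 in limma-voom and 0.017 in limma-trend. In limma-trend Lss was at -0.041, Scap at 0.079 and Mbtps1 at -0.051. Without the stromal-rich libraries Cyp51 was at -0.057 and Scd2 at 0.044; with the covariate Mvk was at -0.0062, Cyp51 at -0.054 and Nsdhl at -0.00011. When each library was left out the log2 fold change ran from -0.056 to 0.041 for Ggps1, -0.26 to 0.14 for Fads2, -0.064 to 0.019 for Scap, -0.076 to 0.14 for Cyp51, -0.069 to 0.0064 for Fads1, -0.032 to 0.14 for Mvk, -0.019 to 0.18 for Fdps, -0.011 to 0.20 for Sqle, -0.023 to 0.097 for Nsdhl and -0.010 to 0.040 for Ebp. The cause of these changes was not tested. The SE of the members, 0.052 to 0.38 with a median of 0.12, limits the differences that could be detected.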

Other observations

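Genes that use the isoprenoids made from mevalonate, by attaching them to proteins or building ubiquinone and dolichol from them, showed no common direction. All 15 were tested, 8 had a positive log2 fold change, the median was 0.0032 and 0 had an adjusted p under 0.05. Pggt1b, the beta subunit of a protein prenyltransferase, was at 45.2 ± 1.78 CPM in knock-in and 40.1 ± 2.61 CPM in control libraries (log2 fold change 0.17 ± 0.055, adjusted p = 0.655 in edgeR). Fnta, the alpha subunit that this enzyme shares with farnesyltransferase, was at 39.0 ± 2.31 CPM in knock-in and 43.4 ± 3.43 CPM in control libraries (log2 fold change -0.15 ± 0.065, adjusted p = 0.786). The subunits of 1 enzyme thus had fitted changes of opposite sign, and neither passed the test.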
